A study of Mus musculus with 6 samples.

Results

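The expression of 9 genes of peroxisomal fatty acid beta-oxidation (Abcd2, Abcd3, Acox2, Ehhadh, Hsd17b4, Acaa1a, Acaa1b, Decr2 and Pex11a) was examined in the livers of mice fed a soy-enriched or a regular diet. The genes were listed for their place in the peroxisome and its proliferation, and were found on the arrays through the RefSeq accession of each non-control probe, which gave 11 probes of 56605, for 9 genes of the 22911 with a symbol. Liver RNA came from 12 weeks old male mice fed for 28 days, 3 on a diet of 100% regular granulated chow (control) and 3 on chow with 25% soy bean and 75% regular food (soy). The study reports that the soy chow held more lipid, more polyunsaturated fat and more protein, and less available carbohydrate, than the regular chow. These components cannot be told apart from one another in this design. All 6 mice ate ad libitum and were kept on the same light-dark cycle, and their strain is not given in the sources used here. Each mouse had 1 one-colour Agilent array. Values are normalized signals on the log2 scale, so that a difference of 1 means a doubling, and they do not compare the amount of one gene with that of another. The liver pieces were whole tissue, in which fewer cells of a type and less RNA per cell cannot be told apart. With 3 arrays to a group, that number sets the precision.

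Peroxisomes shorten very long-chain, branched and dicarboxylic fatty acids and the side chains of bile acid intermediates, which mitochondria handle poorly. The acyl-CoA enters through an ABC transporter of the ABCD family, an acyl-CoA oxidase introduces a double bond and releases hydrogen peroxide, a bifunctional enzyme hydrates and dehydrogenates the product, and a thiolase cleaves off acetyl-CoA. In rodent liver many of these genes are classical targets of the nuclear receptor PPARA, which binds DNA together with a retinoid X receptor (RXR), and PPARA ligands enlarge and multiply the peroxisomes.

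Of the 9 genes, Acaa1b, a peroxisomal 3-ketoacyl-CoA thiolase, rose in the soy livers 2.19-fold in the main analysis. Its call was lost with slide or replicate number as a block and in 4 of the 6 fits with 1 array left out. Acox2, Ehhadh and Pex11a changed by 0.64 to 0.76 on the log2 scale and did not pass the test. Their values were higher on all 3 soy arrays than on any control array. The same held for Acaa1b and Hsd17b4, and for 9.68% of all genes. Hsd17b4, Abcd2, Abcd3 and Decr2 differed by 0.23 or less in the main analysis and did not pass. Acaa1a gave 2 answers, with its dimmer probe past the test and its brighter probe not.

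The sequences before the start sites of Acaa1b, Acaa1a and Ehhadh are shown because the first is the gene that passed, the second is its paralog and the third has the next largest change by the brightest probe. They are the 250 bases upstream of the RefSeq start on GRCm38.p6, 5′ to 3′ in the direction of the gene, at chr9:119157094-119157343 (Acaa1b, minus strand), chr9:119341044-119341293 (Acaa1a, plus strand) and chr16:21787835-21788084 (Ehhadh, minus strand). Capitals mark CCAAT or its reverse complement ATTGG.
Acaa1b: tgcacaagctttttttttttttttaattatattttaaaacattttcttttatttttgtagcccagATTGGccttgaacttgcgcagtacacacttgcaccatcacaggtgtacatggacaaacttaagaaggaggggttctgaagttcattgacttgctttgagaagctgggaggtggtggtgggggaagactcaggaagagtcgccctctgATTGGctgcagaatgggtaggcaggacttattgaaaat
Acaa1a: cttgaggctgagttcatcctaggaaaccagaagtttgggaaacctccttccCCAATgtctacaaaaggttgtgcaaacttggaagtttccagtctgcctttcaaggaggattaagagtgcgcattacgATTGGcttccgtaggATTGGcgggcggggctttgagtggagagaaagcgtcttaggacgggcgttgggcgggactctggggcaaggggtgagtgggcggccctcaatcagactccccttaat
Ehhadh: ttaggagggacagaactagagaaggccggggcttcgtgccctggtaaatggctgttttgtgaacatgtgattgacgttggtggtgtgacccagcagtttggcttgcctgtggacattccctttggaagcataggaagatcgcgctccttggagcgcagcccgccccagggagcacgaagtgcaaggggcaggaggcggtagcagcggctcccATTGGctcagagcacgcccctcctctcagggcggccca

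The RefSeq table holds 9 promoters of 7 of the genes (none of Hsd17b4 or Abcd2). The consensus of the element bound by PPARA and RXR, AGGTCANAGGTCA, was searched on both strands and matched 0 of these 9 promoters, against 0.0335% of all 32851 promoters. A looser form with 1 free base in each repeat, AGGNCANAGGNCA, matched 0 of 9, against 0.338%. At shares this low nearly any 9 promoters would hold 0 matches, so neither count sets these genes apart. The single repeat AGGTCA, which lies within the consensus, also matched 0 of 9, against 14.0%. The CCAAT box, a general promoter motif searched after the sequences had been read, matched 4 of 9 (Acaa1a, Acaa1b, Ehhadh and 1 of the Acox2 promoters), against 33.8%. Acaa1a holds 3 matches, Acaa1b 2 and Ehhadh 1. These are matches of letters in this window only.

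The arrays differed in a way that moved with the diet. Of the spots, 37010, 36366 and 38163 were well above background in the control group, against 31308, 31988 and 32498 in the soy group, that is 61.3 to 64.4% against 52.8 to 54.8% of the spots. The part of this gap in the results was not tested. Of the 9 genes, 8 were well above background on all 6 arrays, and no probe of theirs was saturated. The arrays lay on 3 slides. Slide 1 held control 1, control 2 and soy 1, slide 3 held control 3 and soy 3, and slide 2 held soy 2 alone. To pass, a probe needed an adjusted p (limma, Benjamini-Hochberg correction over every probe) under 0.05 and a fold change above 1.5 or under 0.66. By this rule 198 of 56605 probes passed (0.35%), 118 higher and 80 lower in soy (59.6% higher), whereas Agilent's processed signal gave 11924 higher and 1214 lower (90.8% higher).

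**Figure D1:**
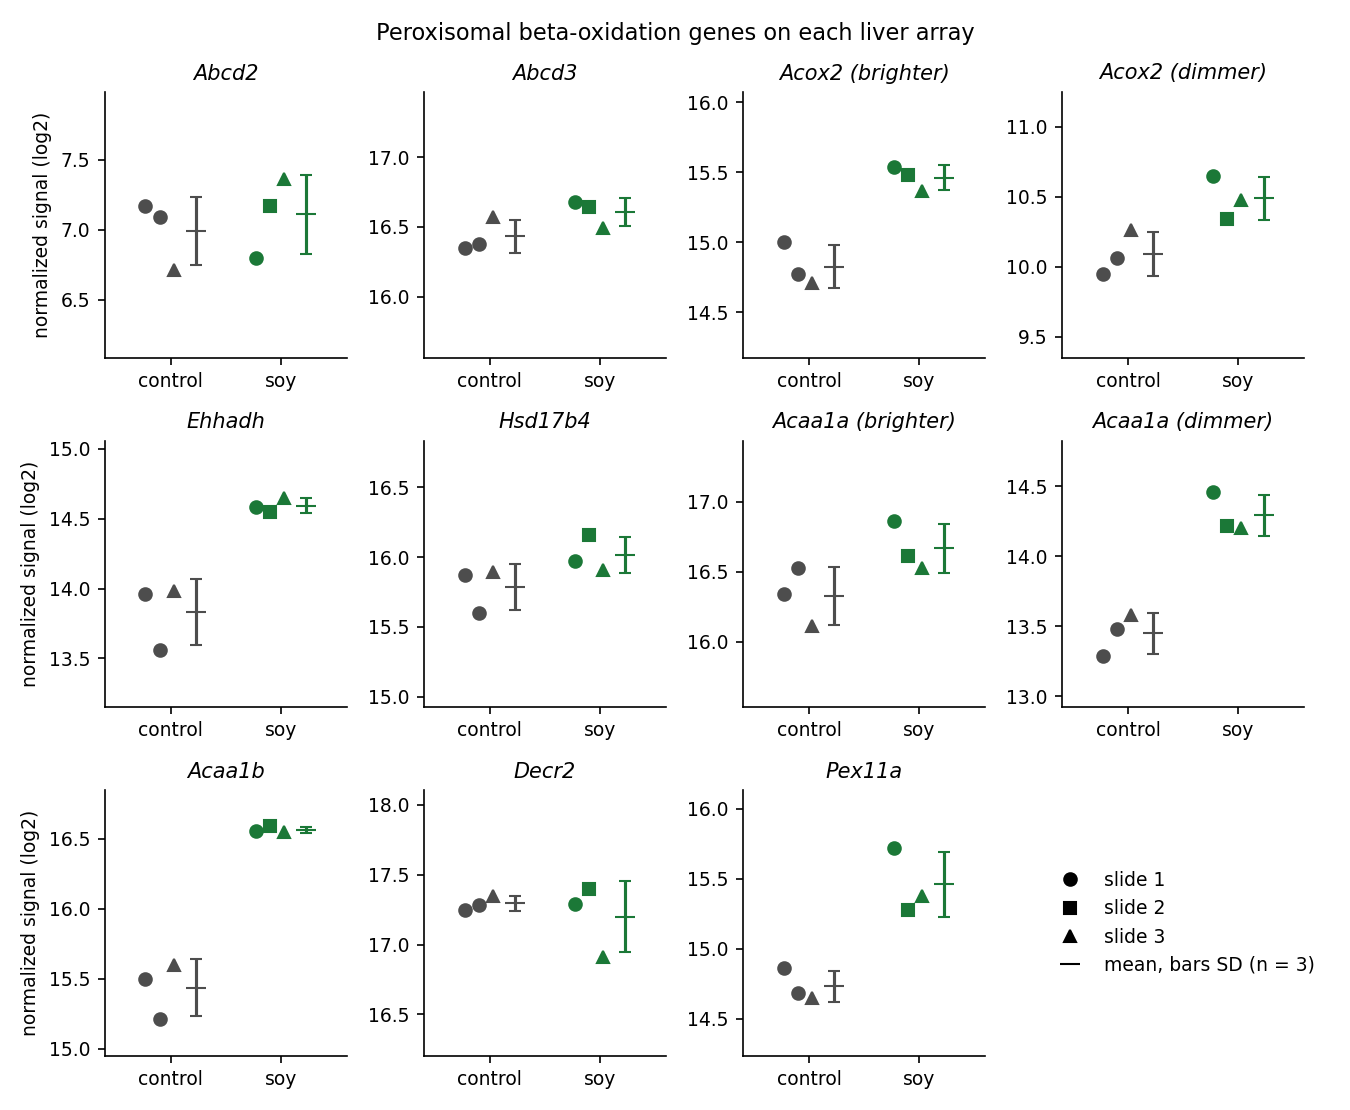
Normalized signal (log2) of the 11 probes of the 9 genes on each array, control in grey and soy in green, with the slide as symbol and the mean ± SD (n = 3) beside the points; each panel spans the same range of log2 units. Soy and control points lie apart for Acox2 (both probes), Ehhadh, Acaa1b, Pex11a, the dimmer Acaa1a probe and, by a small gap, Hsd17b4.

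The transporters came first in the pathway and showed no change past the test. Abcd3 (NM_008991), the peroxisomal transporter of branched-chain and dicarboxylic acyl-CoA, was 16.35, 16.38 and 16.57 in the control livers and 16.68, 16.64 and 16.49 in the soy livers. The groups overlapped, since soy 3 lay below control 3. The change was 0.17 (SE 0.11, 95% confidence interval -0.08 to 0.42, adjusted p = 0.605), with 0.32 within slide 1 and -0.08 within slide 3. Abcd2 (NM_011994), a transporter of very long-chain acyl-CoA known mainly from brain and fat, was 7.17, 7.09 and 6.71 in control and 6.8, 7.17 and 7.36 in soy livers. Its probe was well above background on 3 control arrays and 2 soy arrays. The change of 0.12 (SE 0.18, interval -0.3 to 0.54, adjusted p = 0.84) was -0.33 within slide 1 and 0.65 within slide 3, and it was -0.017 without control 3 and -0.002 without soy 3. It was 0.34 with a shift to the 75th percentile and 0.47 with the processed signal, and did not pass in either.

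Acox2 (NM_053115) is the branched-chain acyl-CoA oxidase that acts on bile acid intermediates. Its brighter probe gave 15.0, 14.77 and 14.71 in control and 15.54, 15.48 and 15.37 in soy livers. Every soy value lay above every control value, with means of 14.83 ± 0.15 and 15.46 ± 0.087 (SD, n = 3). The change of 0.64 (1.55-fold, SE 0.11, interval 0.37 to 0.9) did not pass (adjusted p = 0.0804), and it was 0.65 within slide 1 and 0.66 within slide 3. The dimmer probe was 9.95, 10.06 and 10.26 in control and 10.65, 10.34 and 10.48 in soy livers, and the change was 0.40 (SE 0.13, adjusted p = 0.287). Both probes thus placed the soy livers higher, and neither passed.

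The bifunctional enzymes were represented by Ehhadh and Hsd17b4. Ehhadh (NM_023737), the L-bifunctional enzyme and a well-known PPARA target, was 13.96, 13.56 and 13.98 in control and 14.58, 14.55 and 14.65 in soy livers. The soy values lay close together (14.59 ± 0.055) and above all control values (13.83 ± 0.24). The change of 0.76 (1.69-fold, SE 0.13, interval 0.45 to 1.07) did not pass (adjusted p = 0.0749), with 0.82 within slide 1 and 0.68 within slide 3. Hsd17b4 (NM_008292), the D-bifunctional enzyme, which takes branched-chain and bile acid substrates, was 15.87, 15.6 and 15.89 in control and 15.97, 16.16 and 15.91 in soy livers. Its groups did not overlap, but soy 3 lay only just above control 3. The change was 0.23 (SE 0.12, interval -0.06 to 0.51, adjusted p = 0.544), with 0.02 within slide 3, 0.13 without control 2, 0.15 without soy 2 and 0.14 with slide as a block.

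The thiolases carried the change that passed. Acaa1b (NM_146230), the peroxisomal 3-ketoacyl-CoA thiolase B, was 15.5, 15.21 and 15.6 in control and 16.56, 16.59 and 16.55 in soy livers. The soy values lay close together and all above the control values, with means of 16.57 ± 0.022 and 15.44 ± 0.2 (SD, n = 3). Acaa1b rose by 1.13 (2.19-fold, SE 0.12, interval 0.85 to 1.42, adjusted p = 0.0194), with 1.21 within slide 1 and 0.95 within slide 3. The call did not hold with slide as a block (1.1, adjusted p = 0.136) or replicate number as a block (1.13, adjusted p = 0.0651). The call was also lost without control 1 (adjusted p = 0.0542), soy 1 (0.0751), soy 2 (0.0983) or soy 3 (0.0777), while the change stayed between 1.02 and 1.21. It held without control 2 (adjusted p = 0.0465) and control 3 (0.0315), and narrowly with a normexp offset of 16 (0.05 after rounding). Acaa1b is also in the study's own list of changed genes, which was drawn from these arrays, so its rise there is not independent evidence.

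Acaa1a (NM_130864), the thiolase A paralog, was read by 2 probes. The brighter probe was 16.34, 16.53 and 16.11 in control and 16.86, 16.61 and 16.53 in soy livers. Soy 3 equalled control 2 to 2 decimals, and the change of 0.34 (SE 0.14, interval 0.01 to 0.68, adjusted p = 0.426) did not pass. The dimmer probe was 13.29, 13.48 and 13.58 in control and 14.46, 14.22 and 14.2 in soy livers. By this probe Acaa1a rose by 0.84 (1.79-fold, SE 0.12, interval 0.56 to 1.13, adjusted p = 0.0465), with 1.07 within slide 1 and 0.63 within slide 3, but it passed in 0 of the 6 fits with 1 array left out (adjusted p of 0.0683 to 0.15). It did not pass with slide as a block either (0.88, adjusted p = 0.184).

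The log2 difference between Acaa1b and Acaa1a within each array was compared to ask whether the paralogs changed unequally. With the brighter Acaa1a probe it was -0.84, -1.33 and -0.5 in control and -0.3, -0.02 and 0.02 in soy livers. The groups did not overlap, and the difference of 0.79 had p = 0.1 in the exact permutation test (two-sided), the smallest p that 3 against 3 arrays allow. With the dimmer Acaa1a probe, a choice made after the values were seen, it was 2.21, 1.73 and 2.02 against 2.11, 2.38 and 2.35, and the groups overlapped (difference 0.29, exact p = 0.2). The files used here hold no probe sequences, so how far each probe also reads the other paralog cannot be told apart from a change of its own gene.

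**Figure D2:**
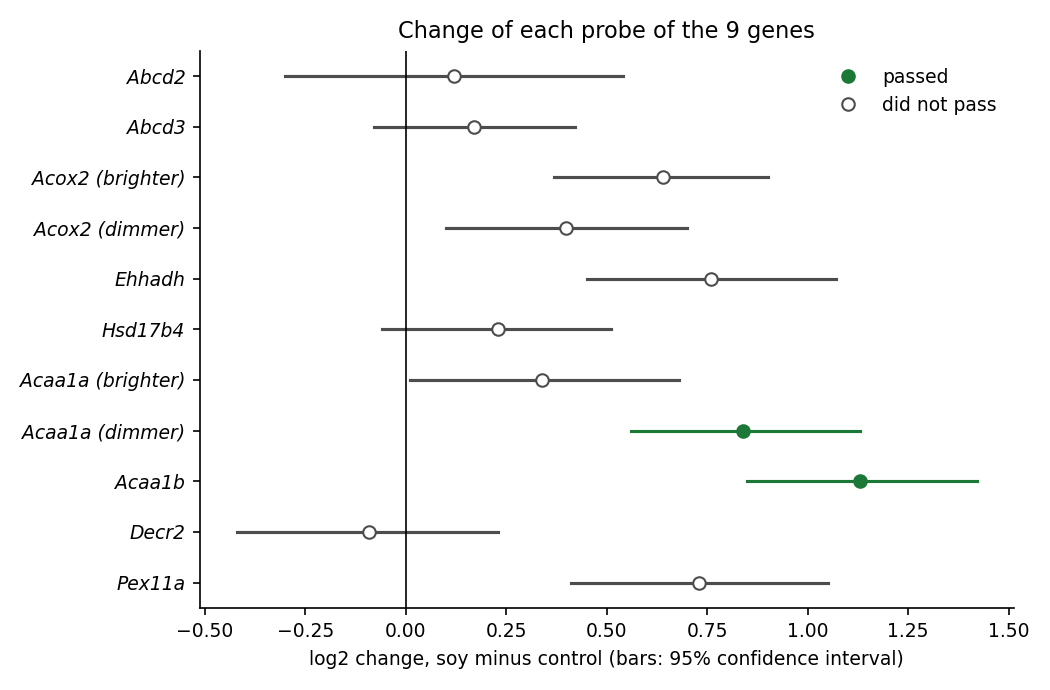
Log2 change (soy minus control) of each of the 11 probes with its 95% confidence interval, filled in green where the probe passed. The Acaa1b probe (1.13) and the dimmer Acaa1a probe (0.84) passed, and the intervals of Abcd2, Abcd3, Hsd17b4 and Decr2 include 0.

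Decr2 and Pex11a stand beside the core pathway. Decr2 (NM_011933), the peroxisomal 2,4-dienoyl-CoA reductase that prepares polyunsaturated chains for oxidation, was 17.25, 17.28 and 17.35 in control and 17.29, 17.4 and 16.91 in soy livers. Soy 3 was the lowest of the 6 arrays and the other soy values lay among or above the control values. The change was -0.09 (SE 0.14, interval -0.42 to 0.23, adjusted p = 0.841), and 0.053 without soy 3. Pex11a (NM_011068), a membrane protein of peroxisome elongation and division that PPARA ligands induce, was 14.86, 14.68 and 14.65 in control and 15.72, 15.28 and 15.38 in soy livers. All soy values were higher, with means of 15.46 ± 0.23 and 14.73 ± 0.11 (SD, n = 3). The change of 0.73 (1.66-fold, SE 0.14, interval 0.41 to 1.05) did not pass (adjusted p = 0.0908), with 0.95 within slide 1 and 0.73 within slide 3.

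Counted by the brightest probe, 1 of the 9 genes passed, higher in soy, where 0.288% of all genes did. Counted by any probe, a choice made after the values were seen, 2 passed, against 0.34% of all genes. By sign, 8 genes were higher and 1 was lower in soy, and within slide 1 and slide 3 respectively 8 and 7 were higher. For 5 genes (Acaa1b, Acox2, Ehhadh, Pex11a and Hsd17b4) every soy array lay above every control array. The same held for 9.68% of all genes, and for 13.3% of the genes well above background on all 6 arrays. The median change of the 9 genes was 0.34, against -0.006 over all genes, and 5 of the 9 (Acaa1b, Acaa1a, Acox2, Ehhadh and Pex11a) had an unadjusted p under 0.05, against 14.3% of all genes. The genes were listed with earlier results of these arrays known, so these counts are a description.

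The calls moved with the settings. With Agilent's processed signal Acox2 (adjusted p = 0.0151), Ehhadh (0.0122) and Pex11a (0.0220) passed beside Acaa1b, where 18.0% of all genes passed as higher in soy by the brightest probe. When the fit was limited to probes well above background, Acox2 (adjusted p = 0.0453) and Ehhadh (0.0417) passed beside it, against 1.1% of the genes in that fit. Over 19 alternatives the change of Ehhadh lay between 0.62 and 0.84, that of Pex11a between 0.6 and 0.85 and that of Acox2 between 0.52 and 0.73.

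**Figure D3:**
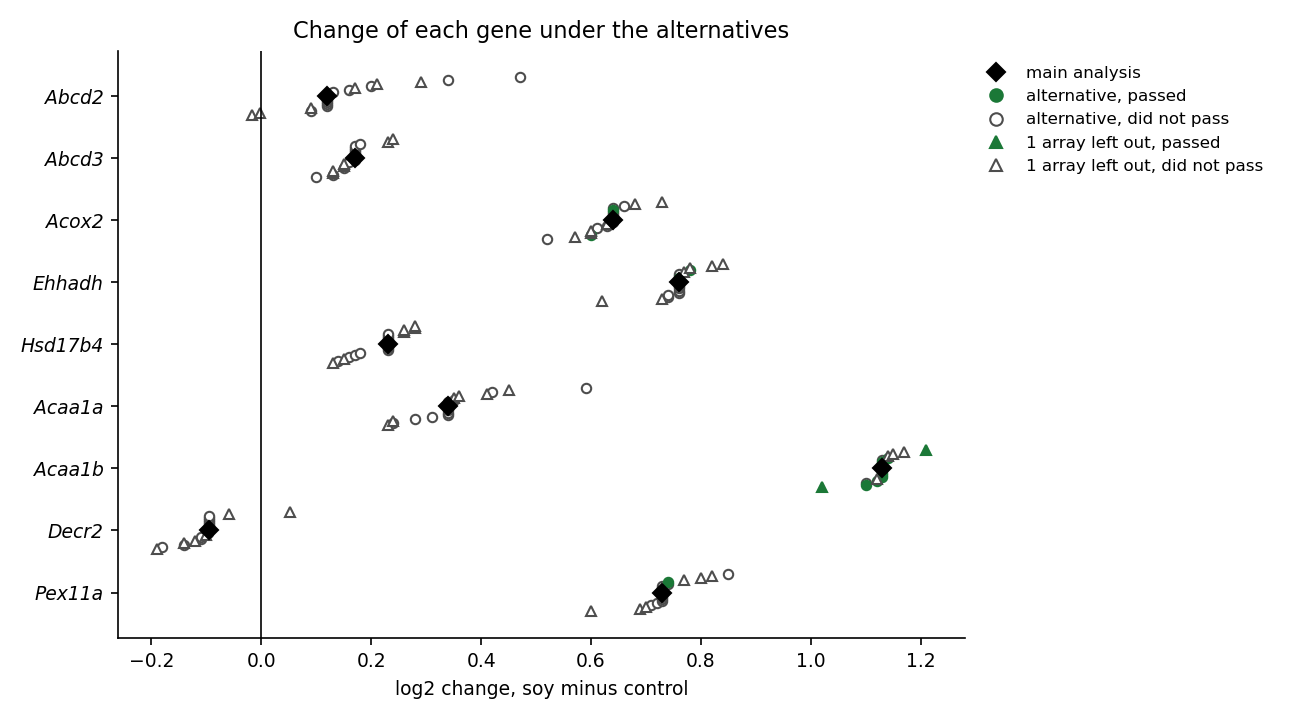
Log2 change (soy minus control) of the 9 genes by the brightest probe in the main analysis (black diamonds), under alternative settings (circles) and with 1 array left out (triangles), filled in green where the gene passed. Acaa1b lies between 1.02 and 1.21 throughout, and Abcd2 and Decr2 cross 0 only with 1 array left out. The Acaa1b circle for a normexp offset of 16 is drawn open although it passed, because its adjusted p rounds to 0.05.

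The other enzymes and carriers of peroxisomal fatty acid oxidation were 25 genes, of which 3 passed, all higher in soy, where 0.288% of all genes did. At an unadjusted p under 0.05, 12 were higher and 0 lower, against 14.3% of all genes in either direction, and for 11 every soy array lay above every control array, against 9.68% of all genes. By sign 20 were higher and 5 lower, with a median change of 0.19. Crat (NM_007760), the carnitine acetyltransferase that hands acetyl units to carnitine for export, was 11.04, 10.4 and 11.48 in control and 12.78, 12.71 and 12.95 in soy livers. It rose by 1.84 (3.58-fold, SE 0.25, adjusted p = 0.0388), while its dimmer probe changed by 0.66 (adjusted p = 0.117). Acot5 and Acot4, acyl-CoA thioesterases of the peroxisome, rose by 1.49 (SE 0.19, adjusted p = 0.0316) and 1.19 (SE 0.17, adjusted p = 0.0457). The dimmer Acot5 probe had a change of the opposite sign (-0.23, adjusted p = 0.539), and that of Acot4 changed by 0.71 (adjusted p = 0.195). Acot3, a close relative, had the largest change of the list, 2.37 (SE 0.42), and did not pass (adjusted p = 0.0767), though it did with the processed signal (0.0121) and among probes well above background (0.0395). The Acot genes form a cluster of similar sequences, and how far their probes read one another was not tested.

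The calls of these 3 genes changed when single arrays were left out. Crat passed without control 2 (adjusted p = 0.0430) and control 3 (0.0247) and not without control 1, soy 1, soy 2 or soy 3 (0.0936 to 0.140). Acot5 behaved alike, with 0.0430, 0.0245 and 0.0821 to 0.127. Acot4 passed without control 3 (adjusted p = 0.0426) and in no other fit with 1 array left out. With slide as a block none of them passed (adjusted p = 0.137 for Crat, 0.154 for Acot4 and 0.158 for Acot5), with changes of 1.81, 1.29 and 1.45, nor did any of them with a normexp offset of 16 (0.071, 0.0865 and 0.0625). With 1 array left out the change lay between 1.55 and 2.1 for Crat, 1.07 and 1.34 for Acot4, and 1.28 and 1.67 for Acot5.

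Genes that build and divide peroxisomes were read next. Of 20 peroxins and division genes, 0 passed in limma, where 0.288% of all genes passed as higher. At an unadjusted p under 0.05, 2 were higher and 1 lower, against 14.3% of all genes, 8 were higher and 12 lower by sign, and the median change was -0.04. Pex26, a peroxisomal membrane anchor of the protein import machinery, changed by -0.38 (adjusted p = 0.59), with 0.01 within slide 1 and -0.98 within slide 3, -0.62 without control 1 and -0.13 without control 3, and its other probe by -0.06. Pxmp2, a membrane channel, changed by -0.34 (adjusted p = 0.45). Of 13 other peroxisomal enzymes, 0 passed in limma (Baat, Ephx2 and Idh1 were higher and Agxt lower at an unadjusted p under 0.05), and the median change was 0.05. Agxt, the alanine-glyoxylate aminotransferase, was 16.15, 16.36 and 15.66 in control and 15.24, 15.18 and 14.93 in soy livers. Its soy values were all lower, and the change of -0.94 (SE 0.19, adjusted p = 0.106) did not pass, though it did with the processed signal (adjusted p = 0.0391) and without control 3 (-1.14, adjusted p = 0.0459). Baat, which conjugates bile acids, changed by 0.56 (adjusted p = 0.39), or by 0.28 without control 1. Its dimmer probe changed by 0.46 (adjusted p = 0.106), and by 0.42 to 0.49 with 1 array left out. Ephx2, the soluble epoxide hydrolase, changed by 0.51 (SE 0.11, adjusted p = 0.115).

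**Figure D4:**
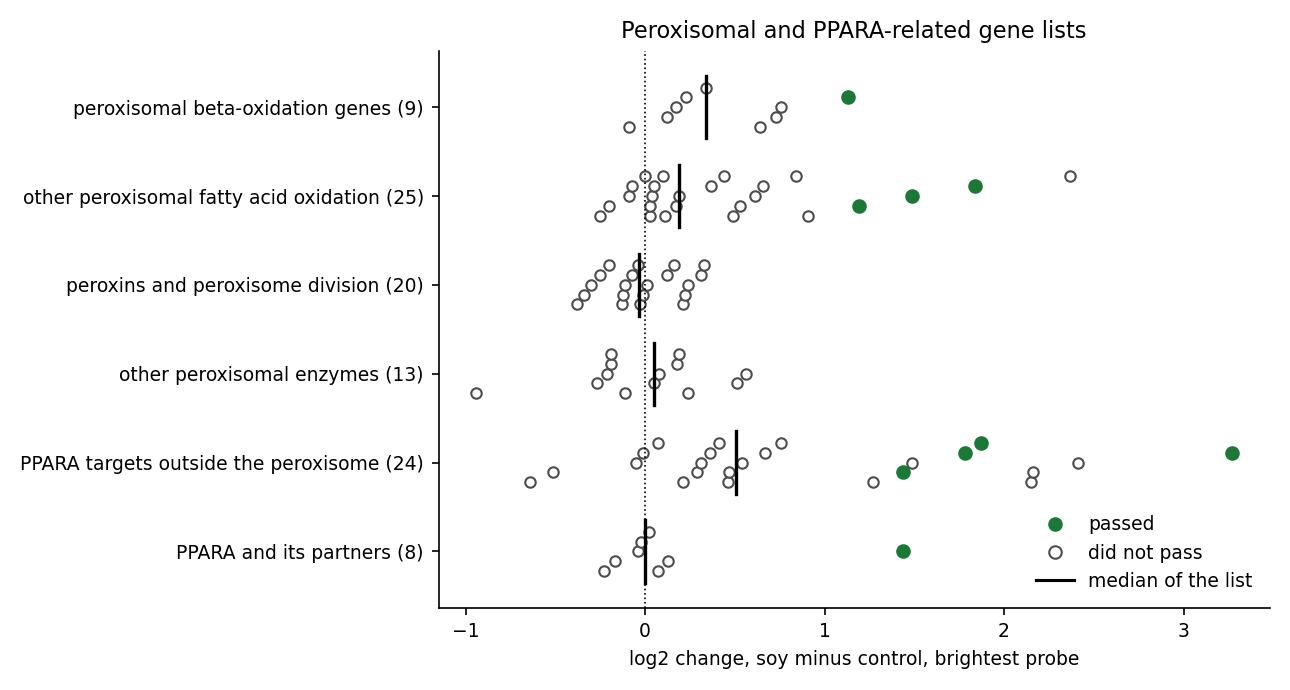
Log2 change (soy minus control, brightest probe) of every gene of 6 lists, with the number of genes in brackets, genes that passed filled in green and the median of each list as a black bar. The medians are 0.34 for the 9 genes, 0.19, -0.04 and 0.05 for the other peroxisomal lists, 0.51 for PPARA targets outside the peroxisome and 0.0 for PPARA and its partners.

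Genes outside the peroxisome that PPARA is known to control were set beside these. Of 24 such genes 4 passed, all higher in soy, where 0.288% of all genes did, 20 were higher and 4 lower by sign, and the median change was 0.51. Cyp4a14, a fatty acid omega-hydroxylase, was 6.93, 6.72 and 7.26 in control and 9.78, 10.21 and 10.74 in soy livers. It rose by 3.27 (SE 0.25, adjusted p = 0.00785), passed in all 6 fits with 1 array left out, and was well above background on 2 of 3 control arrays. Over the alternatives its change lay between 3.03 and 4.6, the latter with the processed signal. Pdk4, the kinase that switches off pyruvate dehydrogenase, rose by 1.87 (adjusted p = 0.0151), and the thioesterases Acot1 (cytosolic) and Acot2 (mitochondrial) rose by 1.78 (adjusted p = 0.0316) and 1.44 (adjusted p = 0.013). Without soy 1, soy 2 or soy 3 none of Pdk4, Acot1 and Acot2 passed (adjusted p of 0.0520 to 0.126), and Acot1 did not pass without control 1 (0.0765). With slide as a block Cyp4a14 passed (adjusted p = 0.0269), and Pdk4 (0.102), Acot1 (0.139) and Acot2 (0.0999) did not. Acot1 did not pass with an offset of 16 either (0.0572). Vnn1, a pantetheinase, changed by 2.41 (adjusted p = 0.163) and Cyp4a31 by 2.16 (adjusted p = 0.243), and neither passed. Control 2 was the lowest array for both (7.1 against 8.66 and 9.68 for Vnn1, 11.81 against 14.17 and 14.51 for Cyp4a31), and without it the changes were 1.72 and 1.31. At an unadjusted p under 0.05, 16 of the 24 genes were higher and 2 lower, against 14.3% of all genes in either direction. The lower genes, named after their values were seen, were Angptl4, an inhibitor of lipoprotein lipase (-0.64, adjusted p = 0.0689), and Cpt1a, which brings long chains into mitochondria (-0.51, adjusted p = 0.256). For both every soy array lay below every control array, and neither passed. The share of all genes that lay below in this way was not computed. For 16 of the 24 genes every soy array lay above every control array, against 9.68% of all genes. Angptl4 passed with the processed signal (adjusted p = 0.0271), among probes well above background (0.0395) and with trend and robust eBayes (0.0427).

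Of 8 genes for PPARA and its partners, 1 passed, higher in soy, where 0.288% of all genes did. At an unadjusted p under 0.05, 1 was higher and 0 lower, against 14.3% of all genes in either direction. Ppara itself changed by 0.07 (SE 0.2, adjusted p = 0.929), and by -0.12 without control 3 and -0.046 without soy 1. Rxrg, one of the RXR partners, was 7.85, 8.18 and 8.34 in control and 9.33, 9.86 and 9.49 in soy livers and rose by 1.44 (SE 0.18, adjusted p = 0.0297). It passed without control 3 (adjusted p = 0.0426) and in no other fit with 1 array left out (0.0654 to 0.103), nor with slide as a block (0.112) or an offset of 16 (0.054). Rxrb (-0.23, adjusted p = 0.475) and Med1, a coactivator (-0.17, adjusted p = 0.602), did not pass. Crat, Acot1, Acot2, Acot3, Pdk4, Cyp4a14, Rxrg and the pancreas marker Cela2a are, like Acaa1b, in the study's own list of changed genes from these arrays. Of these, Acot3 and Cela2a did not pass in the main analysis here. For Cyp4a14 the study also reports qRT-PCR on separately purified RNA, higher in soy by a larger fold than on the arrays.

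Markers of the cells a liver piece can hold were read on the same arrays. In limma 0 genes of 8 marker lists passed, where 0.35% of all probes passed in either direction. The hepatocyte gene Tat, the stellate cell gene Col1a1 and the pancreas genes Cela2a and Cpa1 had an unadjusted p under 0.05. All of these were lower in soy, and 14.3% of all genes reached that p in either direction. Tat changed by -0.76 (adjusted p = 0.323), and passed without control 3 (-1.08, adjusted p = 0.0499). All 7 hepatocyte markers were well above background on all 6 arrays, with a median change of -0.14. The median was 0.24 for 6 Kupffer cell markers, -0.06 for 5 endothelial, -0.16 for 6 stellate cell, 0.12 for 5 cholangiocyte and -0.08 for 5 adipocyte markers. Of the adipocyte markers, Adipoq and Plin1 were well above background on no array and Lep was on all 6, and of the cholangiocyte markers, Epcam was on no array and Krt19, Sox9 and Spp1 were on all 6.

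Pancreas and blood markers were each of one sign. All 5 pancreas markers were lower in soy (median -0.33). Pnlip and Cpa1 were well above background on 2 control arrays and 0 soy arrays each, and the other 3 on all 6 arrays. The 5 had a summed linear signal of 7955, 8196 and 7180 in control and 6575, 5915 and 5447 in soy livers, led by Amy2a5. Cela2a, a pancreatic elastase, changed by -1.21 (adjusted p = 0.0727), with no overlap between the groups, and passed with the processed signal (adjusted p = 0.00788) and among probes well above background (0.0376). All 5 blood cell markers were higher (median 0.42), with sums of 206564, 151119 and 226710 in control and 165929, 362261 and 197435 in soy livers, led by Hba-a1, and all 5 overlapped. Soy 2 had the highest sum. Without it the globin genes changed by -0.066 (Hba-a1) and -0.25 (Hbb-bt), and both were lower in soy within slide 1 (-0.13 and -0.18) and within slide 3 (-0.09 and -0.51). Hbb-bt was also -0.026 and Alas2 -0.42 without control 2. S100a8 (0.58, adjusted p = 0.445) and S100a9 (0.62, adjusted p = 0.482) changed sign under no alternative. Both were higher in soy within slide 1 (0.5 and 0.35) and slide 3 (0.45 and 0.78). With 1 array left out S100a8 lay between 0.29 and 0.84 and S100a9 between 0.33 and 0.96. The part of these markers in the changes of the peroxisomal genes was not tested.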

How the data were processed

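The authors hybridized Cy3-labelled liver cRNA of 6 mice, each to a one-colour Agilent mouse expression array, and deposited, per the file headers, the output of Feature Extraction 11.5.1.1: the median intensity of each spot and its local background, and a processed signal, an intensity after background and trend subtraction. They also deposited a table of log2 values, from which the values computed here differed by at most 0.0561. The genome build of the array design was not used here.

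Median intensities were background corrected (normexp, offset 50), control spots removed, arrays quantile normalized, log2 taken, outlier spots dropped and repeated spots averaged per probe. Each of 56605 probes was tested with limma 3.58.1 (lmFit and eBayes, R 4.3.3) with p-values adjusted over all of them (Benjamini-Hochberg). A gene was given by its brightest probe. Symbols came from RefSeq accessions (GRCm38.p6) for 32994 probes (58.3%). Changes within a slide are differences of group means on that slide. The exact test was run with scipy 1.17.1, and the plots were made with matplotlib 3.10.9. All samples were grouped by the diet in their labels, with 1 animal per array. The script had been tested on simulated data.

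The genes named were the 9 pathway genes, the genes of each list that passed, and the 3 furthest from 0 in each list that were well above background throughout a group, plus for likeness the 5 genes most correlated with Acaa1b. Ppara, Adipoq, Plin1, Epcam, Krt19, Hba-a1, Hbb-bt, Idh1, Cpa1, Pnlip, Angptl4 and Cpt1a are named beside this rule, after their values were seen, as the receptor, as defining markers, as the leading gene of a sum or as members of a small count. Some genes that the rule or a small count would name are not reported here. The members and lists were chosen with earlier results of these data known. The alternatives included uncorrected signals, the processed signal, normexp with offset 16, cyclic loess, a shift to the 75th percentile, outlier spots kept, the deposited log2 values, only probes well above background, eBayes with trend and robust settings, replicate number or slide as a block, adjusted p alone, the mean of a gene's probes and each array left out.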

Additional observations from a re-analysis of the deposited data

How the results depend on the processing

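Across 19 alternatives for each of the 9 genes, 157 of 171 values kept their direction and their side of the threshold, 6 lost the call (all Acaa1b), 5 gained it (Acox2 and Ehhadh 2 each, Pex11a 1) and 3 changed sign: Decr2 to 0.053 without soy 3, and Abcd2 to -0.017 without control 3 and -0.002 without soy 3. With 1 array left out Decr2 ranged from -0.19 to 0.053, Abcd2 from -0.017 to 0.29, Alas2 from -0.42 to 0.85, Hba-a1 from -0.066 to 0.5, Hbb-bt from -0.25 to 0.49 and Ppara from -0.12 to 0.21. The number of the 9 genes that passed was 1, and became 4 with the processed signal and 3 with probes well above background only. It was 0 with the replicate block (Acaa1b adjusted p = 0.0651) and 0 with slide as a block (5 genes at an unadjusted p under 0.05 in each), 0 to 1 with 1 array left out, and 2 by any probe. Deviations of same-numbered mice had r of 0.104, -0.052 and 0.101 over probes, above 0.1 for mice 1 (both on slide 1) and mice 3 (both on slide 3) and not for mice 2. Differently numbered mice had r from -0.189 (control 3 with soy 1) to 0.097 (control 3 with soy 2), both on different slides. Control 2 with soy 1, on the same slide, had 0.086. The numbers were therefore not taken as pairs. The replicate block also ended the calls of the dimmer Acaa1a probe (adjusted p = 0.12), Crat (0.0506), Acot1 (0.0533), Acot4 (0.0835) and Acot5 (0.0675). The count of all probes that passed, 198, became 77 with an offset of 16, 13138 with the processed signal, 299 with the 75th-percentile shift, 493 among probes well above background, 77 with the replicate block, 24 with slide as a block (slide 2 holds 1 soy array only), and 25 to 208 with 1 array left out (103, 78 and 208 without control 1, 2 and 3, and 48, 25 and 29 without soy 1, 2 and 3). The processed signal and the 75th-percentile shift moved the median change of all probes to 0.125 and 0.134, from -0.01. Of 828 values of 46 other genes of the lists, 765 kept their direction and call, 44 lost the call, 10 gained it and 9 changed sign: Alas2 to -0.42 and Hbb-bt to -0.026 without control 2, Hba-a1 to -0.066 and Hbb-bt to -0.25 without soy 2, Hba-a1 to -0.12 and Hbb-bt to -0.32 with slide as a block, Ppara to -0.12 without control 3 and -0.046 without soy 1, and Krt7 to 0.081 with the 75th-percentile shift. The causes were not tested. The difference between Acaa1b and Acaa1a lay between 0.57 and 0.98 with 1 array left out (exact p = 0.2, the smallest that 2 against 3 allow) and was 0.54 with the mean of a gene's probes. Abcd2 was the only one of the 9 genes not well above background on every array.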

Other observations

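The genes whose pattern over the 6 arrays was most like that of Acaa1b, among 13491 genes well above background on all arrays, were Usp39 (Pearson r = 0.9971), Entpd5 (0.9963), Acot5 (0.9941), Mlec (0.9934) and Zfp637 (0.9933). Entpd5 is also in the study's own list from these arrays. The changes of the 5 genes were 0.3 for Usp39, a splicing factor, 1.17 for Entpd5, a nucleotide phosphatase of the endoplasmic reticulum, 1.49 for Acot5, 0.46 for Mlec, a lectin of the endoplasmic reticulum, and 0.41 for Zfp637. In all, 158 genes had r above 0.95. The points are 6 arrays that fall into 2 groups, and genes with a clear gap between the diets can score high, so the values are a description with no test.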
